A study of Homo sapiens with 9 samples.

Results

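The ATF4 amino acid response genes followed here were 36 human genes chosen by symbol: ATF4 and its partner factors, stress regulators, enzymes of serine, proline and asparagine synthesis, amino acid transporters and a few secreted or transport factors. All 36 were found among the 60623 genes of the deposited table, and 35 passed the filter on low counts (16213 genes tested in all). The exception was FGF21, which is described with the secreted factors. RNA was sequenced from 22Rv1, an established human prostate carcinoma cell line, in 9 libraries. All 9 come from cells in which PDCD4, an inhibitor of the RNA helicase EIF4A and so of translation initiation, was knocked down with a short hairpin RNA and then restored in 1 of 3 forms. The form was wild type (WT, genotype PDCD4-WT), S239A, in which an alanine cannot be phosphorylated, or S239D, in which an aspartate mimics a phosphate, with 3 libraries each. Titles of the last group read S23D, while their genotype field gives PDCD4-S239D. The study asks how phosphorylation of this serine by the kinase PLK1 bears on enzalutamide resistance. No drug, dose or time is given for these libraries, and cells with their own PDCD4 intact are not analysed here. Nothing in the labels ties replicates to independent cultures or infections, so each p-value measures only the spread between libraries, which may be technical.

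As background, ATF4 is the transcription factor at the end of the integrated stress response. Kinases that sense amino acid shortage, unfolded proteins in the endoplasmic reticulum, viral RNA or haem deficiency phosphorylate the initiation factor eIF2, which lowers translation of most messages and raises that of ATF4. ATF4 then pairs with C/EBP proteins at composite sites and turns on genes that make, import and charge amino acids, together with the stress factor CHOP (gene DDIT3) and the phosphatase subunit GADD34 (gene PPP1R15A), which reverses the eIF2 phosphorylation. Because ATF4 is controlled largely at translation, its messenger RNA need not follow its protein.

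The composite site is shown because ATF4 dimers bind it. The letters TGATGNAA, which hold the stricter TGATGCAA, were searched on both strands in the 250 bases before the RefSeq start (GRCh38.p14) of the 30 members found in the promoter table. They were present in 3 of the 30 (10%) and in 3.14% of all 35116 windows, and TGATGCAA was present in 2 of 30 and in 0.772%. The cAMP response element TGACGTCA was present in 1 of 30 (3.33%) and in 1.65% of all windows, and the C/EBP palindrome TTGCGCAA in 0 of 30 and in 0.131%. No member held both a composite match and TGACGTCA. GPT2, NUPR1, PSPH, PYCR1, SHMT2 and SLC7A11 had no entry. Each of the 4 matches is given with the bases around it, 5′ to 3′ on the gene's strand, with the match in capitals, in the reverse orientation (TTGCATCA) in CHAC1 and FGF21.
ASNS, chr7:97872458-97872487, minus strand, 68 to 61 bases before the start: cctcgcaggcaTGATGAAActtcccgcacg
CHAC1, chr15:40953251-40953280, plus strand, 209 to 202 bases before the start: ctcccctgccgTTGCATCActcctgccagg
FGF21, chr19:48755459-48755488, plus strand, 54 to 47 bases before the start: aaacaccaggaTTGCATCAgggaggaggag
PPP1R15A, chr19:48872352-48872381, plus strand, 58 to 51 bases before the start: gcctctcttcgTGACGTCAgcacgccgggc
Of these 4 genes, ASNS was lower and PPP1R15A higher in S239D than in WT, CHAC1 was not called and FGF21 was not tested. In GENCODE 29 the ASNS and CHAC1 stretches also lie inside exons of transcripts that start further upstream, and the FGF21 and PPP1R15A stretches lie in no exon. A match describes the letters only.

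Libraries held 5696841 to 9688554 counts. Transcripts of the mitochondrial genome took 2.83 to 3.04% of counts in WT, 2.99 to 5.38% in S239A and 4.72 to 6.01% in S239D, with replicate 2 highest in S239A and in S239D. All 9 prostate luminal markers of the list used, KLK3 among them, were above 1 TPM in each group (TPM is abundance per transcript length), and they summed to 3477 to 3577 TPM in WT, 3611 to 4045 in S239A and 2636 to 2700 in S239D. Of 5 endothelial markers 0 were above 1 TPM (sum at most 0.61 TPM, CDH5 at 0). Of 6 leukocyte markers 2 were above it in WT and S239A and 1 in S239D (sums of 4.81 to 7.52, 3.30 to 12.6 and 2.73 to 3.46 TPM, CD3E at 0). Of 7 fibroblast markers 3 were above it in WT and S239A, with sums of 47.0 to 61.3 TPM, and 2 in S239D, with 26.9 to 37.1. Of 5 neuroendocrine markers 2 were above it in each group, and the 5 summed to 69.8 to 79.3 TPM in WT and S239A and 34.5 to 55.3 in S239D. Whether any of these shifts plays a part in the results on the 36 genes was not tested. PDCD4 itself stood at a mean of 23.1 ± 2.40 CPM in WT, of 22.4 ± 3.06 CPM in S239A and of 17.0 ± 0.184 CPM in S239D (SD, n = 3), from the cells' own and the introduced copy together, a log2 difference of -0.44 (SE 0.13, adjusted p = 0.0164) for S239D against WT.

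In S239D the 36 genes did not share 1 direction. Against WT, 7 of the 35 tested rose and 11 fell, where 41.4% of all genes tested were called (19.7% higher and 21.7% lower). The rises were largest in the stress factors PPP1R15A, ATF5, DDIT3 and the transporter chain SLC3A2. The falls covered asparagine, serine and one-carbon enzymes, the glutamine transporter SLC1A5 and the mTOR inhibitor DDIT4. The median log2 fold change of the 35 was -0.13, beside 0.00075 over all genes tested. Calls are edgeR quasi-likelihood tests with Benjamini-Hochberg adjustment over all 16213 genes at 0.05, adjusted p values are edgeR's unless another tool is named, and levels are normalised CPM, counts divided by TMM-scaled library size. By at least 1 on the log2 scale 3 rose and 1 fell, beside 3.76% and 7.22% of all genes tested, and at an unadjusted p under 0.05 there were 22, beside 49.4%. All S239D libraries lay above all WT libraries for 12 members and below them for 13, beside 26.5% and 27.4% of all genes tested. The 36 genes took 0.517 to 0.558% of raw counts in WT and S239A libraries and 0.547 to 0.572% in S239D. Without S239A replicate 2 and S239D replicate 2, the libraries with the highest mitochondrial shares, 12 rose and 13 fell. Over all genes that fit called 4176 higher and 4346 lower of 16519, against 3195 and 3513 of 16213 in the main fit. With trends over GC content and transcript length removed 12 rose and 11 fell, beside 4346 and 3524 of 16213 over all genes.

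**Figure D1:**
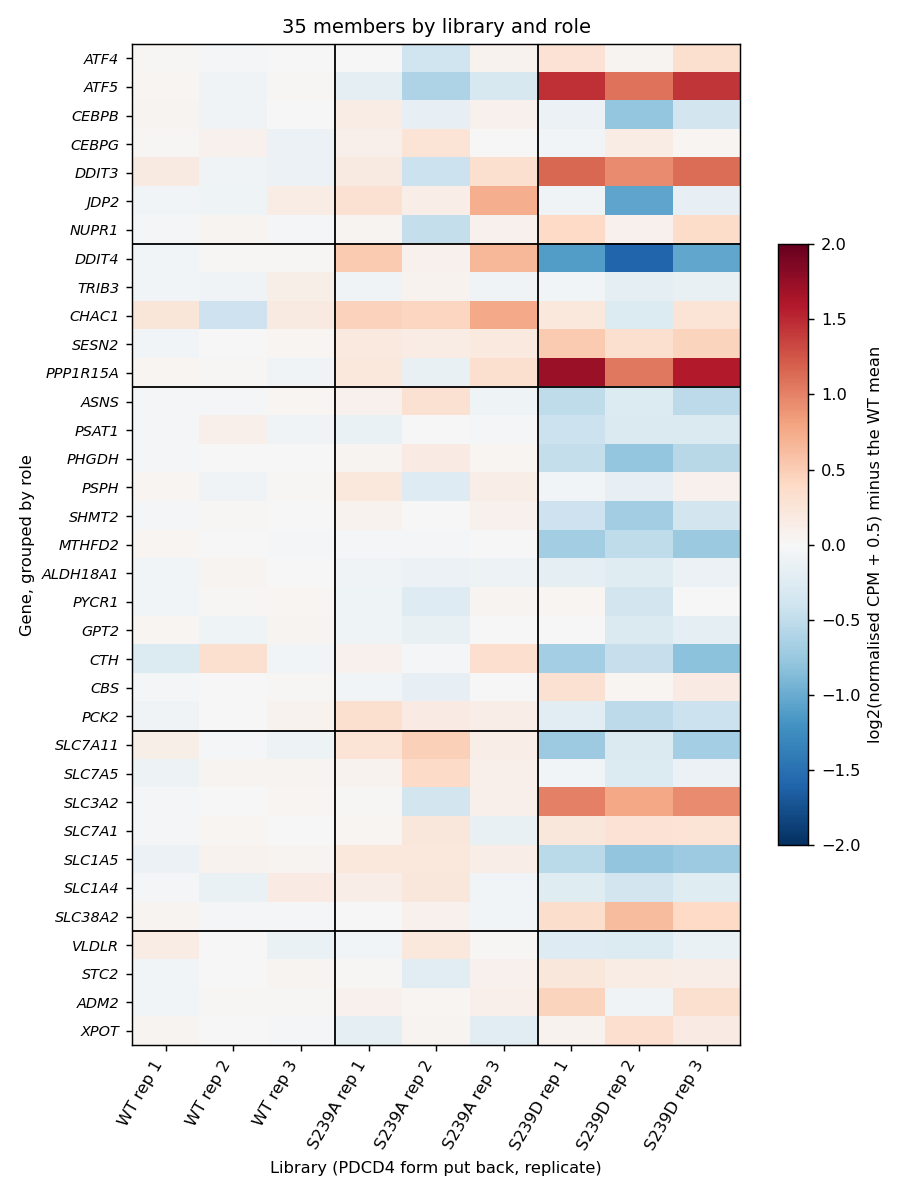
Each row is 1 of the 35 members tested and each column 1 library, and colour is log2(normalised CPM + 0.5) minus the mean of the WT libraries, red above and blue below. ATF5, DDIT3, PPP1R15A and SLC3A2 are red in all 3 S239D libraries, while DDIT4 and 7 called enzymes are blue, and horizontal lines separate the roles.

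Among the transcription factors, ATF5 and DDIT3 rose in S239D, CEBPB fell and ATF4 itself did not pass against WT. ATF5 (chromosome 19, 49928702 to 49933935, positions as deposited, on GRCh38 by their overlap with GENCODE 29), a factor of the ATF4 family that is also controlled through eIF2, stood at 44.4, 41.3 and 44.2 CPM in the WT libraries, 38.1, 28.0 and 34.4 CPM in those of S239A and 121, 92.6 and 118 CPM in those of S239D. Every S239D library lay above all others, and every S239A library lay below every WT library. Its log2 fold change was 1.35 (SE 0.12, adjusted p = 2.11e-06) against WT. DDIT3, which encodes the pro-apoptotic factor CHOP (chromosome 12, 57516588 to 57521737), stood at 51.0, 42.8 and 41.5 CPM in the WT libraries, 51.2, 33.2 and 56.3 CPM in those of S239A and 99.7, 87.5 and 98.0 CPM in those of S239D. The S239D libraries lay clear of the other 6, with a log2 difference of 1.07 (SE 0.16, adjusted p = 9.78e-05) against WT. Exons of ATF5 and DDIT3 overlap genes on the opposite strand in GENCODE 29 and the counting is not stated to use strand. For ATF5 the partner NUP62 was at -0.076 (adjusted p = 0.461), with a longest shared stretch of exon of 305 bases. For DDIT3 the partners MARS (287 bases) and MBD6 (58 bases) were at 0.19 (adjusted p = 0.0734) and 0.90 (adjusted p = 0.000237). If strand was not used, reads in the shared bases cannot be told apart.

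ATF4 (chromosome 22, 39519695 to 39522685) stood at 407, 390.0 and 402 CPM in the WT libraries, 404, 302 and 421 CPM in those of S239A and 486, 414 and 501 CPM in those of S239D. All 3 S239D libraries lay above the WT range by a small margin, and S239A replicate 2 was the lowest of the 9. The difference of S239D from WT was 0.22 (SE 0.11, adjusted p = 0.124), with a 95% interval of -0.016 to 0.46. It passed without S239A replicate 2 (adjusted p = 0.0204), without S239D replicate 2 (adjusted p = 0.0396) and without both (0.31, adjusted p = 4.54e-06). It also passed with the compared groups alone (adjusted p = 0.0371), with the replicate number as a block (adjusted p = 0.0476) and with GC and length trends removed (0.26, adjusted p = 0.0233). Here and below, S239A libraries enter the comparison of S239D with WT only through the shared fit. Without S239A replicate 2 the ATF4 difference was 0.225, and over all genes 3659 were called higher and 3874 lower, against 3195 and 3513 in the main fit. CEBPB, a C/EBP factor that dimerises with ATF4, stood at 104, 95.7 and 101 CPM in the WT libraries, 111, 89.6 and 106 CPM in those of S239A and 92.2, 58.7 and 77.8 CPM in those of S239D. It was lower in S239D, at -0.40 (SE 0.14, adjusted p = 0.0297), with S239D replicate 2 well under the other libraries. The CEBPB call was lost without any 1 WT library, without S239D replicate 2 (-0.24, adjusted p = 0.0867), without S239D replicate 3 (adjusted p = 0.0679) and in the limma fit of log2(TPM + 1) (adjusted p = 0.118), and the WT omissions gave adjusted p = 0.0998, 0.0541 and 0.0769.

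The other 3 factors did not pass against WT. CEBPG, the C/EBP partner that lacks an activation domain, ranged from 109 to 142 CPM over all 9 libraries (0.042, 95% interval -0.16 to 0.24). NUPR1, a small stress-induced chromatin protein, stood at 117, 124 and 116 CPM in the WT libraries, 123, 85.3 and 127 CPM in those of S239A and 157, 126 and 154 CPM in those of S239D. The S239D libraries lay above WT, by 0.29 (SE 0.13, adjusted p = 0.0908), and NUPR1 passed without S239A replicate 2 (adjusted p = 0.013) and without S239D replicate 2 (adjusted p = 0.0285). JDP2, a repressor of the AP-1 and ATF families, stood at 5.96, 5.79 and 6.91 CPM in the WT libraries, 7.78, 6.88 and 10.6 CPM in those of S239A and 5.88, 2.71 and 5.46 CPM in those of S239D. Its low counts gave a wide interval (-0.41, 95% interval -0.98 to 0.17), with S239D replicate 2 the lowest library.

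The stress regulators divided. PPP1R15A, the eIF2 phosphatase subunit GADD34 (chromosome 19, 48872421 to 48876058), stood at 38.6, 37.9 and 35.6 CPM in the WT libraries, 43.5, 33.6 and 46.7 CPM in those of S239A and 125, 78.1 and 113 CPM in those of S239D. This was the largest rise among the 35, 1.50 (SE 0.16, adjusted p = 7.34e-06), and even the lowest S239D library was above every other library. SESN2, which encodes sestrin 2, a leucine sensor that restrains mTOR complex 1, stood at 45.9, 47.8 and 49.2 CPM in the WT libraries, 54.8, 52.9 and 54.8 CPM in those of S239A and 68.6, 59.8 and 65.1 CPM in those of S239D. It rose in S239D with a log2 difference of 0.44 (SE 0.091, adjusted p = 0.00164), with no overlap between any of the 3 groups. DDIT4 (chromosome 10, 72273924 to 72276036), known as REDD1 and also an inhibitor of mTOR complex 1, moved the other way, at 154, 162 and 161 CPM in the WT libraries, 229, 168 and 253 CPM in those of S239A and 73.0, 52.5 and 76.9 CPM in those of S239D. It had the largest fall of the 35, -1.23 (SE 0.15, adjusted p = 2.17e-05), and the S239A libraries all lay above WT. Its antisense partner DDIT4-AS1 held 18.2% as many counts and moved with it (-1.28, adjusted p = 7.72e-05). Their longest shared stretch of exon is 566 bases, and reads in shared bases cannot be told apart if strand was not used.

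TRIB3 and CHAC1, which are among the genes most often used to report ATF4 activity, did not pass. TRIB3, a pseudokinase that feeds back on ATF4 and CHOP, stood at 115, 114 and 130.3 CPM in the WT libraries, 113, 126 and 114 CPM in those of S239A and 115, 105 and 108 CPM in those of S239D. The groups overlapped (-0.13, 95% interval -0.32 to 0.055). CHAC1, which degrades glutathione, stood at 4.98, 2.99 and 4.76 CPM in the WT libraries, 5.93, 5.78 and 7.38 CPM in those of S239A and 4.90, 3.33 and 5.14 CPM in those of S239D. WT and S239D overlapped at this low level (0.044, 95% interval -0.50 to 0.59), and the S239A libraries lay above both.

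**Figure D2:**
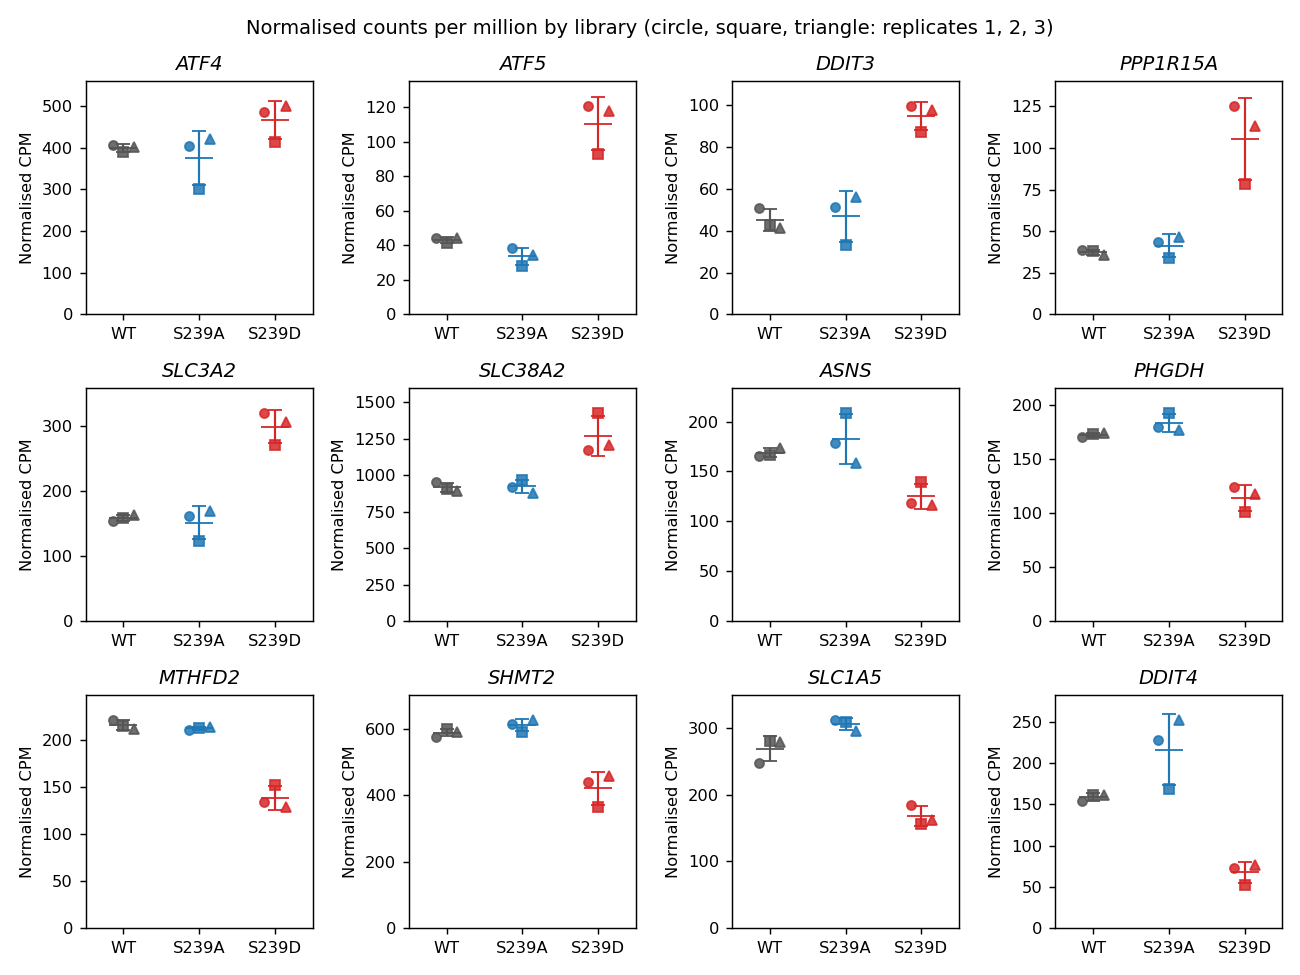
Normalised CPM of 12 members in each library, with circles, squares and triangles for replicates 1, 2 and 3 and bars for mean and SD (n = 3). ATF5, DDIT3, PPP1R15A, SLC3A2 and SLC38A2 sit higher in S239D, ASNS, PHGDH, MTHFD2, SHMT2, SLC1A5 and DDIT4 sit lower, and ATF4 lies between 414 and 501 CPM in S239D.

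Of the 12 biosynthetic enzymes, 7 fell and 0 rose in S239D against WT, where 21.7% of all genes tested were called lower and 19.7% higher. Their median was -0.36 and 5 did not pass. At an unadjusted p under 0.05 there were 8 lower and 0 higher, beside 49.4% of all genes tested in either direction. DESeq2 called 7 lower and 0 higher, and limma on log2(TPM + 1) called 5 lower and 1 higher (CBS). Over all genes DESeq2 called 3160 lower and 2872 higher of 28733, and limma 1825 lower and 2526 higher of 17363. With GC and length trends removed 7 were lower and 1 higher, and without S239A replicate 2 and S239D replicate 2 together 8 were lower and 1 higher, CBS in both. Over all genes those settings called 3524 of 16213 and 4346 of 16519 lower.

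Of the 5 genes that make serine and pass its carbon on, 4 fell. PHGDH, which commits a glycolytic intermediate to serine (chromosome 1, 119648411 to 119744226), stood at 170.0, 173 and 174 CPM in the WT libraries, 179, 192 and 177 CPM in those of S239A and 124, 101 and 118 CPM in those of S239D. The S239D libraries lay far under the tight WT values, a log2 difference of -0.59 (SE 0.088, adjusted p = 0.00012). PSAT1, the transaminase of the next step, stood at 149.9, 162 and 144 CPM in the WT libraries, 138, 153 and 149 CPM in those of S239A and 113, 124 and 125 CPM in those of S239D. Its fall was smaller, -0.33 (SE 0.084, adjusted p = 0.00547), without overlap of S239D with either other group. PSPH, the phosphatase of the last step, lay between 29.4 and 40.9 CPM in all 9 libraries and did not pass (-0.045, 95% interval -0.32 to 0.23).

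SHMT2, which splits serine into glycine and a one-carbon unit in mitochondria (chromosome 12, 57229573 to 57234935), stood at 578, 599 and 592 CPM in the WT libraries, 617, 592 and 629 CPM in those of S239A and 440.1, 365 and 459 CPM in those of S239D. It fell with a log2 difference of -0.48 (SE 0.086, adjusted p = 0.000516), with replicate 2 the lowest of S239D. MTHFD2, which oxidises that one-carbon unit (chromosome 2, 74198610 to 74217565), stood at 222, 215 and 211 CPM in the WT libraries, 210.2, 213 and 214 CPM in those of S239A and 134, 152 and 128 CPM in those of S239D. WT and S239A were nearly level and S239D lay under both, at -0.64 (SE 0.082, adjusted p = 3.07e-05) against WT. A short stretch of SHMT2 overlaps NDUFA4L2 on the opposite strand, which fell by 2.60 (adjusted p = 1.8e-09) and held 11.9% as many counts. MTHFD2 and SLC4A5, on the opposite strand, have a longest shared stretch of exon of 1324 bases. SLC4A5 held 6.45% as many counts as MTHFD2 and was at -0.082 (adjusted p = 0.72). Reads in shared bases cannot be told apart if strand was not used.

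ASNS, asparagine synthetase (chromosome 7, 97851677 to 97872542), whose match is printed above, stood at 166, 167 and 174 CPM in the WT libraries, 178, 209 and 159 CPM in those of S239A and 119, 139.8 and 117 CPM in those of S239D. Each S239D library lay under each WT library, with a difference of -0.43 (SE 0.10, adjusted p = 0.00427). Reads of ASNS cannot be told apart from those of AC079781.5 where both share 351 bases of exon (9.39% as many counts). PCK2, the mitochondrial enzyme that feeds phosphoenolpyruvate towards serine, stood at 74.7, 78.3 and 82.7 CPM in the WT libraries, 97.9, 88.4 and 86.2 CPM in those of S239A and 67.2, 54.4 and 58.1 CPM in those of S239D. It was lower in S239D, at -0.39 (SE 0.10, adjusted p = 0.00614), and the S239A libraries lay above WT. ASNS and PSAT1 missed the threshold in the limma fit of log2(TPM + 1) (-0.27, adjusted p = 0.232, and -0.26, adjusted p = 0.0608).

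Of the genes for the 2 steps that turn homocysteine into cysteine, CTH was called lower and CBS was not called. CTH, cystathionine gamma-lyase, was scarce, at 6.83, 10.5 and 8.05 CPM in the WT libraries, 8.89, 8.11 and 10.7 CPM in those of S239A and 5.02, 5.92 and 4.51 CPM in those of S239D. S239D lay under WT, at -0.70 (SE 0.21, adjusted p = 0.0165), a call lost without WT replicate 2 (adjusted p = 0.0776) or S239D replicate 3 (adjusted p = 0.07). CBS, cystathionine beta-synthase, stood at 128, 133 and 134 CPM in the WT libraries, 127, 117 and 133 CPM in those of S239A and 164, 135 and 147 CPM in those of S239D. The S239D libraries were above the others by a margin that did not pass against WT (0.17, 95% interval -0.018 to 0.36, adjusted p = 0.136), though it did without S239D replicate 2 (adjusted p = 0.0323). CBS has a near-identical copy, CBSL, which was assigned 1.08% as many counts, and reads could be split between them.

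The proline enzymes ALDH18A1 and PYCR1 and the alanine transaminase GPT2 did not pass. ALDH18A1 stood between 146 and 159 CPM in S239D and between 166 and 179 in WT, a difference of -0.18 (adjusted p = 0.0698). Without S239A replicate 2, which belongs to neither group, it passed at nearly the same size (-0.178, adjusted p = 0.0418). PYCR1 (-0.10, 95% interval -0.34 to 0.14) and GPT2 (-0.16, 95% interval -0.37 to 0.047) overlapped between groups.

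**Figure D3:**
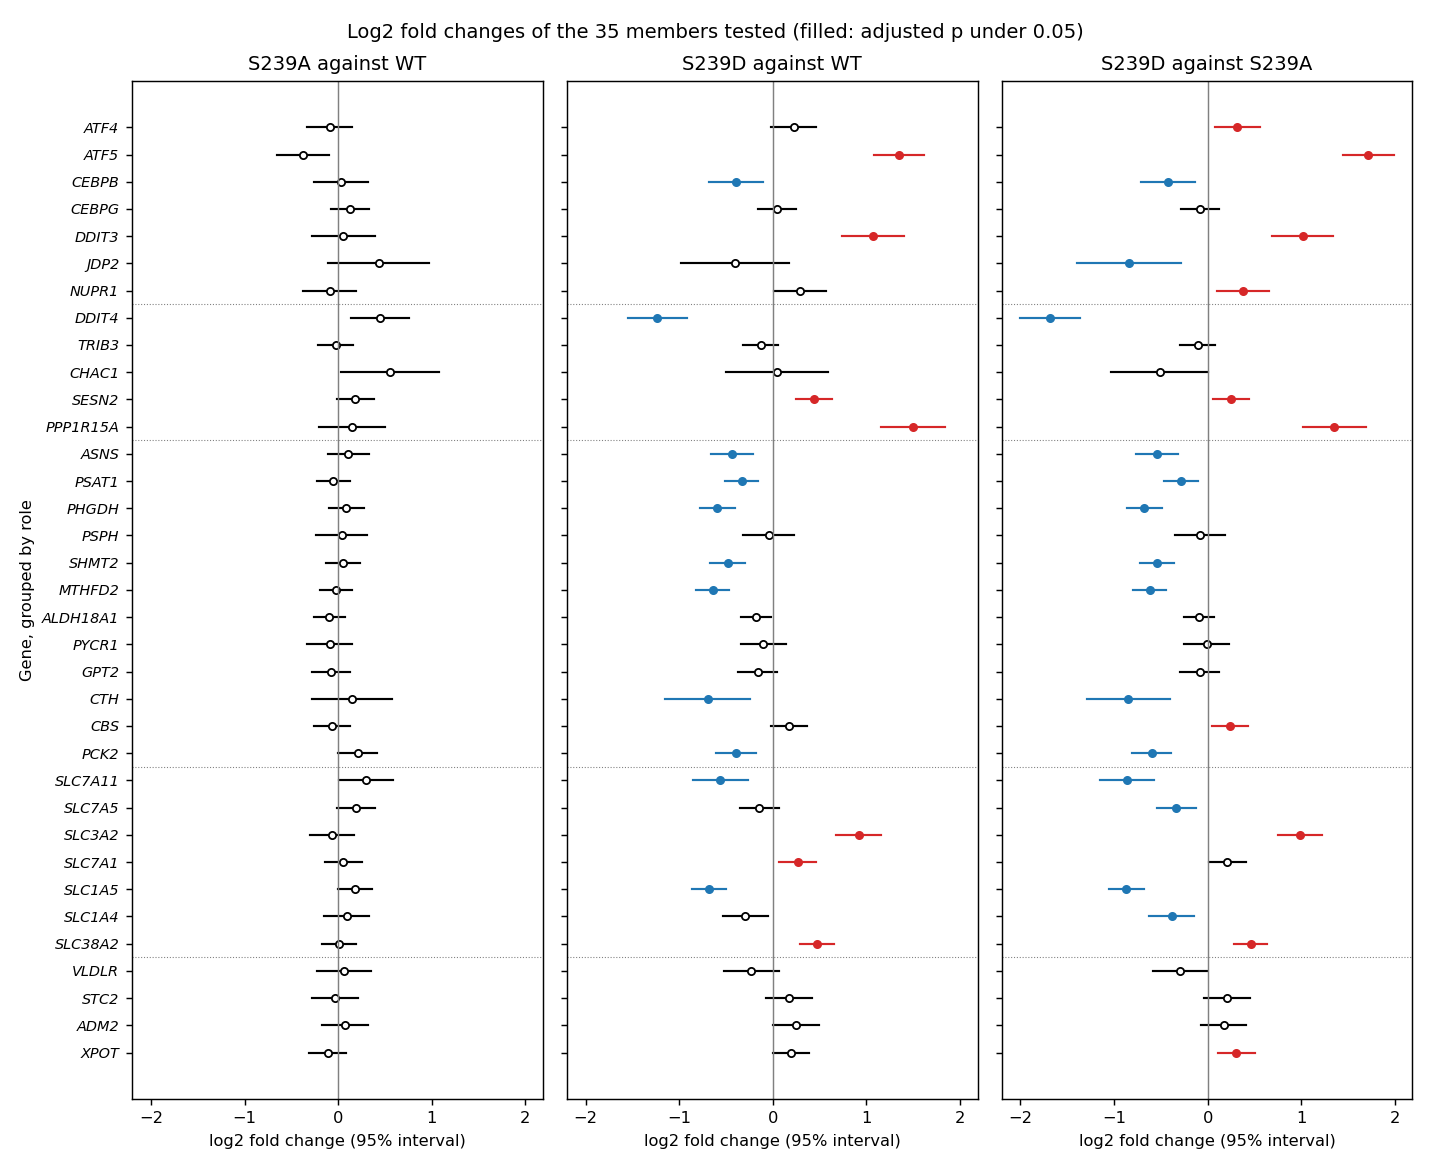
Log2 fold change with its 95% interval for the 35 members in the 3 comparisons, with filled points where the adjusted p was under 0.05, red higher and blue lower. No point is filled for S239A against WT, 18 are for S239D against WT and 24 for S239D against S239A.

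Of 7 amino acid transporters, 3 rose and 2 fell in S239D against WT, where 19.7% of all genes tested were called higher and 21.7% lower. SLC3A2 encodes the heavy chain 4F2hc, which carries the light chains SLC7A5 and SLC7A11 to the membrane (chromosome 11, 62856102 to 62888875). It stood at 153, 159 and 162 CPM in the WT libraries, 161, 122 and 169.6 CPM in those of S239A and 319.7, 271 and 305 CPM in those of S239D. The S239D libraries lay clear of the rest, with a log2 difference of 0.92 (SE 0.11, adjusted p = 2.06e-05). SLC7A5, the light chain of the leucine carrier LAT1, stood at 217, 239.9 and 239.6 CPM in the WT libraries, 243, 301 and 249 CPM in those of S239A and 224, 193 and 213 CPM in those of S239D. WT and S239D overlapped (-0.14, 95% interval -0.35 to 0.061), and S239A replicate 2 was the highest library. SLC7A11, the cystine carrier xCT (chromosome 4, 138164097 to 138242349), stood at 39.6, 35.8 and 33.8 CPM in the WT libraries, 44.1, 50.9 and 39.6 CPM in those of S239A and 21.8, 29.7 and 22.6 CPM in those of S239D. It was lower in every S239D library than in any other, at -0.56 (SE 0.14, adjusted p = 0.00495) against WT, though not called with limma on log2(TPM + 1) (-0.31, adjusted p = 0.216).

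The 3 chains thus stood in other proportions in S239D. In TPM, which can be compared between genes, the ratio of SLC3A2 to SLC7A5 was 1.83 to 1.90 in WT, 1.10 to 1.90 in S239A and 3.47 to 3.98 in S239D. That of SLC3A2 to SLC7A11 was 23.2 to 28.4, 14.3 to 22.2 and 51.0 to 81.1 in the same order. The ranges of S239D did not overlap those of the other groups, and the lowest value of each ratio was that of S239A replicate 2. A ratio within a library shows unequal change only.

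SLC1A5, the glutamine exchanger ASCT2 (chromosome 19, 46774883 to 46788594), stood at 248, 281 and 279 CPM in the WT libraries, 313, 309.6 and 295 CPM in those of S239A and 184, 156 and 163 CPM in those of S239D. S239D lay under WT and WT under S239A with no overlap, and the fall from WT was -0.68 (SE 0.086, adjusted p = 2.92e-05). An antisense transcript, AC008622.2, overlaps it with 18.3% as many counts. Its close relative SLC1A4, a carrier of neutral amino acids, stood at 42.2, 39.5 and 48.8 CPM in the WT libraries, 47.4, 50.6 and 41.6 CPM in those of S239A and 36.7, 33.5 and 36.5 CPM in those of S239D. The S239D libraries were the lowest, at -0.29 (SE 0.11, adjusted p = 0.0516) against WT, a difference that passed without WT replicate 2 (adjusted p = 0.0471), S239A replicate 2 (adjusted p = 0.0343) or S239A replicate 3 (adjusted p = 0.0474).

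SLC38A2, the amino acid carrier SNAT2 that is induced by starvation (chromosome 12, 46358188 to 46372773), stood at 951, 905 and 894 CPM in the WT libraries, 918, 969.9 and 880.5 CPM in those of S239A and 1172, 1427 and 1209 CPM in those of S239D. It rose by 0.47 (SE 0.084, adjusted p = 0.00053), and S239D replicate 2 was the highest library, whereas it was the lowest of S239D for ATF5, DDIT3, PPP1R15A and SLC3A2. SLC7A1, the arginine and lysine carrier, stood at 148, 155 and 150.3 CPM in the WT libraries, 156, 178 and 137 CPM in those of S239A and 176, 185 and 182 CPM in those of S239D. Its rise over WT was small, 0.26 (SE 0.092, adjusted p = 0.0332). The SLC7A1 call was lost without WT replicate 1, 2 or 3 (adjusted p = 0.108, 0.0721 and 0.094), without S239D replicate 2 or 3 (adjusted p = 0.0509 and 0.0839) and in the limma fit of log2(TPM + 1) (adjusted p = 0.0512).

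The secreted factors, the lipoprotein receptor VLDLR and the tRNA exporter XPOT held no call against WT by edgeR, DESeq2 or limma, and 1 of the 4 tested had an unadjusted p under 0.05. With GC and length trends removed 2 of the 4 were called higher, ADM2 (0.40, adjusted p = 0.000267) and XPOT (0.25, adjusted p = 0.0064). The 1 with an unadjusted p under 0.05 was ADM2, adrenomedullin 2, at 76.2, 79.7 and 80.4 CPM in the WT libraries, 83.4, 81.0 and 84.4 CPM in those of S239A and 107, 74.9 and 98.2 CPM in those of S239D. S239D replicate 2 lay under WT while the other S239D libraries were above it. The difference of 0.25 (SE 0.11, adjusted p = 0.0937) passed without that library (0.38, adjusted p = 0.00187). XPOT, which carries tRNA out of the nucleus, stood at 335, 319.6 and 313 CPM in the WT libraries, 285, 334 and 277 CPM in those of S239A and 340.3, 407 and 360.0 CPM in those of S239D. All S239D libraries lay above WT, by 0.19 (SE 0.092, adjusted p = 0.105), which passed without S239A replicate 2 (adjusted p = 0.0392). STC2, stanniocalcin 2, lay at 22.9 to 24.6 CPM in WT and 26.1 to 27.7 in S239D (0.17, 95% interval -0.077 to 0.42), and VLDLR at 14.7 to 18.0 and 13.3 to 14.8 (-0.23, 95% interval -0.52 to 0.061). FGF21, a starvation hormone, had 1 count in WT replicate 1, 1 in S239A replicate 1 and 0 in the other 7 libraries. A count of 0 allows up to 3 counts, or 0.307 to 0.527 CPM in these libraries, for counting error only.

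Per transcript length, the order of levels changed at the top. In WT the highest means were SHMT2 at 452 TPM and ATF4 at 448, followed by SLC38A2 at 343. In S239D ATF4 (556 ± 40.2 TPM) and SLC38A2 (551 ± 124 TPM) were ahead of SHMT2 (339.6 ± 31.3 TPM), and the first pair differed by less than its spread (SD, n = 3). SLC3A2 went from 131 to 266 TPM and DDIT3 from 95.9 to 212, while DDIT4 went from 146 to 65.9. SHMT2 and ATF4 in WT differed by less than the spread of their libraries (452 ± 15.1 and 448 ± 7.72 TPM, SD, n = 3).

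In S239A against WT, 0 of the 35 genes passed the edgeR test, where 0.00617% of all genes tested were called. DESeq2 and limma on log2(TPM + 1) also called 0, and 5 had an unadjusted p under 0.05 (9.76% of all genes tested did). DDIT4, CHAC1, SLC7A11 and SLC1A5 were above WT in every S239A library, at 0.45, 0.55, 0.30 and 0.18 on the log2 scale. ATF5 was below, at -0.37. Their adjusted p ran from 0.317 for DDIT4 to 0.504 for SLC1A5, and the median of the 35 was 0.055. Groups did not overlap for 9 of the 35 above and 2 below WT, beside 9.94% and 9.55% of all genes tested. Without S239A replicate 2 and S239D replicate 2, DDIT4 passed as higher (0.60, adjusted p = 1.36e-06) and XPOT as lower (-0.20, adjusted p = 0.0201). Over all 16519 genes that fit called 442 higher and 432 lower. DDIT4 also passed with no filter on low counts (0.44, adjusted p = 0.00408).

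The comparison of S239D with S239A sets the phosphate mimic against the form that cannot be phosphorylated, with WT left aside. Of the 35 genes, 10 rose and 14 fell, where 43.6% of all genes tested were called (20.9% higher and 22.7% lower). Libraries did not overlap for 9 members above and 16 below, beside 24.2% and 25.6% of all genes tested. By at least 1 on the log2 scale 3 rose and 1 fell, beside 3.71% and 8.38%. The S239D libraries are the same as in the comparison with WT, so the values are set side by side and not counted as a second line of evidence. ATF5 was higher by 1.72 (SE 0.13, adjusted p = 1.87e-07), against 1.35 over WT. For DDIT4 the fall was -1.68 (SE 0.15, adjusted p = 1.09e-06), against -1.23 from WT. SLC1A5 was at -0.87 and -0.68, SLC7A11 at -0.86 and -0.56, and PCK2 at -0.60 and -0.39 in the same order. PPP1R15A (1.35), DDIT3 (1.01), MTHFD2 (-0.62), PHGDH (-0.68), SHMT2 (-0.54), SLC3A2 (0.98), SLC38A2 (0.46), ASNS (-0.54), CTH (-0.85), PSAT1 (-0.28), CEBPB (-0.43) and SESN2 (0.25) passed as well, in the direction they had against WT.

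Another 7 genes passed against S239A and not against WT. ATF4 was higher than in S239A by 0.31 (SE 0.11, adjusted p = 0.0346), NUPR1 by 0.38 (SE 0.13, adjusted p = 0.0301), XPOT by 0.31 (SE 0.092, adjusted p = 0.0149) and CBS by 0.24 (SE 0.089, adjusted p = 0.0403). SLC7A5 was lower, at -0.33 (SE 0.096, adjusted p = 0.0116), as were SLC1A4 at -0.38 (SE 0.11, adjusted p = 0.0129) and JDP2 at -0.84 (SE 0.26, adjusted p = 0.0166). SLC7A1 passed against WT and not here (0.21, adjusted p = 0.0785), except without S239A replicate 2 (0.31, adjusted p = 0.00575), without S239A replicate 2 and S239D replicate 2 together (0.30, adjusted p = 0.000472) and with the replicate number as a block (0.21, adjusted p = 0.0469). Passing in 1 comparison and not in the other does not show that S239A and WT differ in that gene. In the main fit edgeR called none of these 8 between those groups. Without S239A replicate 2 and S239D replicate 2 together, it called XPOT lower in S239A than in WT (-0.20, adjusted p = 0.0201).

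Several calls of S239D against S239A were lost when 1 library was left out or the processing changed. ATF4 and NUPR1 lost theirs without S239A replicate 2 (0.18, adjusted p = 0.0841, and 0.22, adjusted p = 0.0779), the library lowest in both, and without S239D replicate 1 or 3. ATF4 also lost it without any 1 WT library, at adjusted p values of 0.0512 to 0.0531. WT libraries enter this comparison only through the shared fit, and the ATF4 log2 fold change was 0.315, 0.314 and 0.315 without them. JDP2 lost its call without S239D replicate 2 (-0.58, adjusted p = 0.054) or S239A replicate 3, XPOT without S239A replicate 1 or 3, and PSAT1 without S239D replicate 1 (adjusted p = 0.0549). CEBPB lost it without S239A replicate 1 or 3 or S239D replicate 2, CBS without any 1 library except S239D replicate 2 or S239A replicate 3, and SESN2 without any 1 library except S239D replicate 2. SLC7A5 lost it with GC and length trends removed (-0.17, adjusted p = 0.137). The count of 10 higher was 6 without S239D replicate 1 and 6 without S239D replicate 3, and limma on log2(TPM + 1) called 9 higher and 8 lower. Over all genes those omissions called 3093 and 2759 higher, against 3390 in the main fit. Limma called 2784 higher and 1913 lower of 17363 genes.

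Other genes of the pathway were read from lists set by pathway. Of 16 genes for the eIF2 kinases, eIF2 and its exchange factor eIF2B, 5 rose and 1 fell in S239D against WT (median 0.14). Of all genes tested 19.7% were called higher and 21.7% lower. With GC and length trends removed 8 of the list were higher and 1 lower. Over all 16213 genes that setting called 4346 higher and 3524 lower, against 3195 and 3513 in the main fit. EIF2B5, the catalytic subunit of eIF2B, rose by 0.79 (SE 0.099, adjusted p = 2.86e-05), from 57.1 ± 3.33 to 98.9 ± 6.29 CPM. GCN1, which activates the amino acid sensing kinase, rose by 0.56 (adjusted p = 0.000163) and EIF2B4 by 0.55 (adjusted p = 0.00151). EIF2B5 lies on chromosome 3, where the median over all genes tested was 0.22, while no member of the 36 lies there. On the chromosomes of the 35 members that median ran from -0.089 (chromosome 13, SLC7A1) to 0.098 (chromosome 16).

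Enzymes that charge tRNA include many ATF4 targets. Of 20 cytosolic aminoacyl-tRNA synthetases, 4 rose and 1 fell (median 0.082), where 19.7% of all genes tested were called higher and 21.7% lower, led by NARS for asparagine (0.53, SE 0.087, adjusted p = 0.000269), KARS for lysine (0.32, adjusted p = 0.0147) and WARS for tryptophan (0.24, adjusted p = 0.0371). NARS, which uses asparagine, was higher while ASNS, which makes it, was lower. Called cytosolic synthetases numbered 3 without WT replicate 1 or S239D replicate 2, 1 without WT replicate 2, and 2 without WT replicate 3, S239A replicate 1 or S239D replicate 3. With GC and length trends removed, 9 cytosolic synthetases were higher and 0 lower, and without S239A replicate 2 and S239D replicate 2 together 7 were higher and 2 lower. Over all genes those settings called 4346 of 16213 and 4176 of 16519 higher. Limma on log2(TPM + 1) called 2 cytosolic synthetases higher and 0 lower, beside 2526 and 1825 of 17363 genes. Of 17 mitochondrial synthetases 3 rose and 0 fell (0 fell by DESeq2, by limma and at an unadjusted p under 0.05), LARS2 by 0.54 (adjusted p = 0.000594), RARS2 by 0.34 (adjusted p = 0.0224) and MARS2 by 0.28 (adjusted p = 0.0131). Of the mitochondrial list 17.6% was called, beside 41.4% of all genes tested. The count of 3 was 1 without WT replicate 3 or S239D replicate 3 and 6 without S239D replicate 2. With GC and length trends removed 7 mitochondrial synthetases were higher and 0 lower. LARS2 lies on chromosome 3 and NARS on chromosome 18, where the median of all genes tested was 0.21.

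Of 29 further stress genes linked to ATF4, 10 rose and 7 fell, where 19.7% of all genes tested were called higher and 21.7% lower. IFRD1, a transcriptional coregulator, rose by 1.39 (SE 0.13, adjusted p = 2.45e-06), from 75.7 ± 2.85 to 199 ± 2.05 CPM, and SQSTM1, the autophagy receptor p62, by 1.22 (SE 0.089, adjusted p = 2.34e-07). HERPUD1, of endoplasmic reticulum degradation, fell by 0.76 (adjusted p = 6.48e-06). In the IRE1-XBP1 and ATF6 branch of the unfolded protein response 8 of 16 genes fell and 1 rose (median -0.26), beside the same shares of all genes. The falls included PDIA4 (-1.22), HSP90B1 (-0.96) and HSPA5 (-0.74, adjusted p = 6.19e-06), folding factors of the endoplasmic reticulum. In the S239D libraries, where DDIT3 and PPP1R15A were higher, HSPA5 stood at 829 ± 53.8 CPM, against 1381 ± 18.2 in WT. Whether these changes are linked was not tested.

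Of 29 further enzymes of amino acid and one-carbon metabolism tested, 15 fell and 4 rose (median -0.27), where 21.7% of all genes tested were called lower and 19.7% higher, with falls in the glutamine synthetase gene GLUL (-1.02, SE 0.082, adjusted p = 5.99e-07) and AHCY of the methionine cycle (-0.58, adjusted p = 0.000423). Limma on log2(TPM + 1) called 5 lower and 4 higher of that list, beside 1825 lower and 2526 higher of 17363 genes. Of 20 further amino acid transporters tested, 6 rose and 7 fell, and the 3 with the smallest adjusted p all rose: SLC38A1, a glutamine carrier (0.90, SE 0.085, adjusted p = 2.39e-06), and the leucine carriers SLC43A1 (1.10, adjusted p = 6.04e-06) and SLC43A2 (1.10, adjusted p = 3.54e-05). SLC38A1 went from 221 ± 4.05 to 413 ± 42.4 CPM, so that it and SLC38A2 rose while SLC1A5 fell. In S239A against WT 0 genes of these 7 lists were called by edgeR, DESeq2 or limma, and 0 to 5 genes of a list had an unadjusted p under 0.05. Without S239A replicate 2 and S239D replicate 2 together, edgeR called genes in each list except that of eIF2, among them 5 higher stress genes, 1 higher and 2 lower cytosolic synthetases, 2 lower transporters, and 2 higher and 1 lower enzymes. Over all 16519 genes that fit called 442 higher and 432 lower, against 0 and 1 of 16213 in the main fit.

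**Figure D4:**
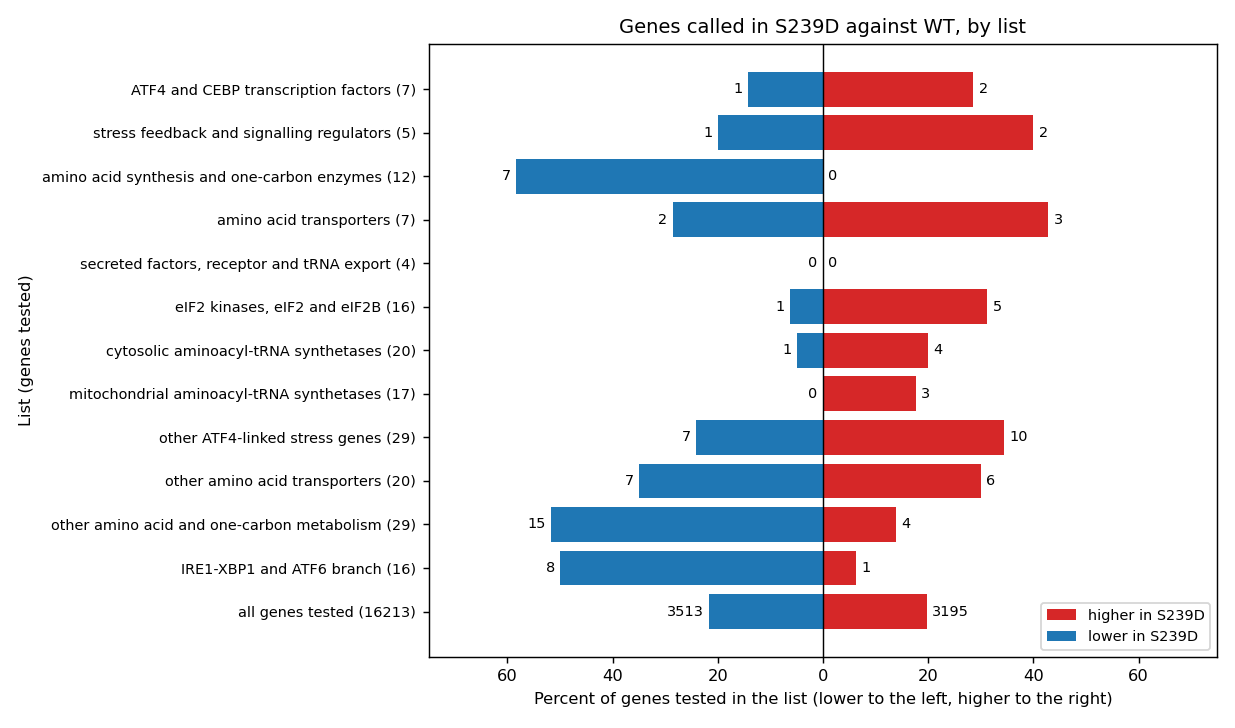
Percent of the genes tested in each list that were called in S239D against WT, lower to the left and higher to the right, with the number of genes at each bar. The enzymes of amino acid synthesis (7 lower, 0 higher) lean to the left, and the last bar gives all 16213 genes.

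The order of replicates within each group was counted for the members only, so whether it is particular to them was not tested. Replicate 2 of S239D was the lowest of its group for 25 of the 35 genes and the highest for 8. Replicate 2 of S239A was the lowest for 20 of 35 and the highest for 12. The median deviation of the 35 genes from the WT mean was -0.27 on the log2 scale in S239D replicate 2, against -0.050 and -0.12 in the other S239D libraries. In S239A the 3 medians were 0.065, 0.041 and 0.083. Among the rises, PPP1R15A was at 78.1 CPM in S239D replicate 2 and at 125 and 113 in replicates 1 and 3, and without both replicate 2 libraries its log2 fold change over WT was 1.67. ATF5 was 1.46, DDIT3 1.13, SLC3A2 0.98, DDIT4 -1.08 and PHGDH -0.51 with that setting.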

How the data were processed

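The authors deposited RSEM expected counts, not normalized between libraries, and TPM scaled within each library. Per the submitters' processing notes Trimmomatic 0.39 and RSEM were used, whereas aligner, build, annotation and strand setting are not given in the sources used here. Gene positions come from the deposited table, and of its identifiers 96.5% were found in GENCODE 29 (GRCh38), 99.9% of these overlapping. Expected counts (3.81% not whole) were rounded, scaled by TMM, filtered with filterByExpr and tested with edgeR 4.0.16 (R 4.3.3) in 1 fit of 9 libraries, two-sided. The function was tested on simulated data. Alternatives were RLE scaling, DESeq2 1.42.0, limma 3.58.1 on log2(TPM + 1) where 3 libraries reached 1 TPM, no filter, 1 CPM in 6 libraries, a fit of only the groups compared, a block for the replicate number, and leave-one-out fits. The omission of replicate 2 of S239A and of S239D together and the removal of GC and length trends (splines with 4 degrees of freedom, fitted on 99.1% of genes tested) were added after seeing the data.

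The members, lists and rules were chosen with earlier results of these data known. Named genes were all 36 members, values in every library being given for those called in any comparison and for ATF4, DDIT3, TRIB3, CHAC1 and ASNS, and the 3 called genes of each list with the smallest adjusted p in S239D against WT, of which 1 is not reported here. Synthetase symbols are the table's older ones (NARS for NARS1). Same-numbered libraries of S239A and S239D deviated together by a little (correlations of 0.10, 0.25 and 0.10 over genes), although replicate 1 correlated best with replicate 3. The pairing comes from the data and not the labels. The values printed are from the fit without the block, and the blocked value is given where it changes a call between these groups. Adjusted p-values follow Benjamini and Hochberg. Promoter sequences are from RefSeq (GRCh38.p14).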

Additional observations from a re-analysis of the deposited data

How the results depend on the processing

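No member changed sign where it was called in either fit. Of the 18 members called in S239D against WT, 12 were called in all 18 alternatives: ATF5, DDIT3, DDIT4, MTHFD2, PCK2, PHGDH, PPP1R15A, SESN2, SHMT2, SLC1A5, SLC38A2 and SLC3A2. Of the 24 in S239D against S239A, 13 were. How many of all called genes were called in every alternative was not counted, so these shares have no all-gene share beside them. In S239A against WT members called were 1 higher with no filter, and 1 higher and 1 lower without S239A replicate 2 and S239D replicate 2 together. Genes called in that comparison, 1 of 16213, were 72 with DESeq2, 2 with limma on log2(TPM + 1), 142 with no filter, 6 with the replicate block, 874 without both replicate 2 libraries and 12 with GC and length trends removed. In S239D against WT, limma on log2(TPM + 1) called 7 members lower and 4351 genes, with a member median of -0.030, and 58.1% of its calls were higher against 47.6% in the edgeR fit. Without both replicate 2 libraries 12 members were called higher, and with GC and length trends removed 12, with a median of -0.049. Over all genes those settings called 4176 and 4346 higher, and the all-gene median was 0.054 with the trends removed. In S239D against S239A, 6 members were called higher with the compared groups alone, beside 2777 of 15749 genes (3390 of 16213 in the main fit). Limma called 8 members lower and 4697 genes (59.3% of them higher, against 48.0%). The cause of these shifts was not tested.

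Leaving out 1 library at a time gave 6 to 10 members higher, 9 to 13 lower, a median of -0.18 to -0.081 and 5322 to 7533 genes called in S239D against WT. It gave 6 to 11, 12 to 14, -0.14 to -0.077 and 5853 to 7182 in S239D against S239A, and 0, 0, 0.030 to 0.055 and 1 to 8 in S239A against WT (8 without S239D replicate 2, 2 without WT replicate 3). With the replicate block 9 members were called higher and 12 lower in S239D against WT, where same-numbered libraries share only a number (correlations of -0.0087 to 0.010, and 0.015 to 0.091 for S239A against WT), and 11 and 14 in S239D against S239A, and SLC7A1 was the only member whose call in the latter changed. Over all genes the block called 3472 higher and 3803 lower in S239D against WT (3195 and 3513 in the main fit). In S239D against S239A it called 3709 and 3901 (3390 and 3674 in the main fit). At 5696841 to 9688554 counts per library, CHAC1, JDP2 and CTH had the largest standard errors of the 35 members, and FGF21 could not be tested.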

Other observations

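Some genes of the pathway lists fall outside the naming rule and were chosen here after their values were seen. ATF3, a stress factor induced downstream of ATF4, was at a mean of 48.3 ± 7.20 CPM in WT, of 57.6 ± 6.97 CPM in S239A and of 93.1 ± 10.9 CPM in S239D (SD, n = 3), a log2 difference of 0.95 (SE 0.13, adjusted p = 5.7e-05) against WT. GDF15, a stress cytokine, rose by 0.85 (adjusted p = 0.000342), from 185 ± 11.8 to 335 ± 58.7 CPM. EIF2AK3, which encodes the endoplasmic reticulum kinase PERK, rose by 0.47 (adjusted p = 0.00876), while EIF2AK4, which encodes the amino acid sensor GCN2, was at -0.013 (adjusted p = 0.924). EIF4EBP1, an inhibitor of cap-dependent translation and a known ATF4 target, fell by 0.64 (adjusted p = 0.00418). The glutamate carrier gene SLC1A2 had the largest fall of the transporter list, -2.68 (SE 0.41, adjusted p = 0.00015). In the glycine cleavage system GLDC was lower (-0.85, adjusted p = 0.00146) and AMT higher (1.55, adjusted p = 0.00366).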
